A study of Homo sapiens with 4 samples.

Results

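The window around RFX6 and GPRC6A at 6q22 is a region of chromosome 6 that carries a prostate cancer risk variant, rs339331, and it was examined for binding of HOXB13, a homeobox transcription factor of the prostate. Its members were the HOXB13 peaks with a summit between positions 117000000 and 117450000 of the hg19 build, chosen by position alone. There were 19 such peaks in the GSK2879552 list, of 68049 on chromosomes 1 to 22, X and Y, and 2 in the vehicle list, of 3507. Binding was measured by chromatin immunoprecipitation with sequencing in LNCaP, a long-established prostate cancer line that responds to androgen, maintained in medium with 10% FBS and kept in medium with 5% CSS for the treatment. The GSK2879552 cells received 50 µM of this inhibitor of the histone demethylase LSD1 (KDM1A) for 4 hours, and the vehicle cells are named as such only in the titles and descriptions, since the treatment text of all 4 samples names the inhibitor. The 4 samples are 2 sequencing lanes of 1 library per treatment, and both lanes of a treatment share 1 peak list. No treatment therefore has a replicate, intervals cover counting error only, and no test between treatments was possible. Gene expression was not measured, so the identity of the cells was not checked against marker genes.

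RFX6 encodes a winged-helix transcription factor of the RFX family that is required for the formation of pancreatic islets, and GPRC6A encodes a G protein-coupled receptor that senses amino acids and cations. The variant rs339331 lies in an intron of RFX6, inside a sequence that HOXB13 is known to bind, and its risk allele is known to raise HOXB13 binding and RFX6 expression in prostate cells. Which allele these LNCaP cells carry was not examined. In the GRCh38 annotation of RefSeq, the protein-coding genes next to the pair are FAM162B below GPRC6A and VGLL2 above RFX6, and no hg19 gene model was used here beyond the intervals of the pair. The RFX6 interval was 117198376 to 117253326, and the GPRC6A interval was taken as about 117113000 to 117150000.

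HOXB13 binding in the GSK2879552 list included the risk variant itself. A GSK2879552 peak at 117209754 to 117210175, 422 bp wide, spanned rs339331 at 117210052, and its summit at 117209982 lay 70 bp below the variant. The authors' fold enrichment at this summit, the ratio of overlapping tags to the local background with 1 added to each, was 6.83. The pileup, the number of overlapping extended tags at the summit, was 36 (exact 95% Poisson interval 25.2 to 49.8) over a local background of 4.42 tags. The −log10 q-value was 17.3. This fold enrichment was the third highest of the 19 members, and 93.0% of all GSK2879552 peaks had a lower one. No vehicle peak spanned the variant, and the nearest vehicle summit lay 7167 bp above it.

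**Figure D1:**
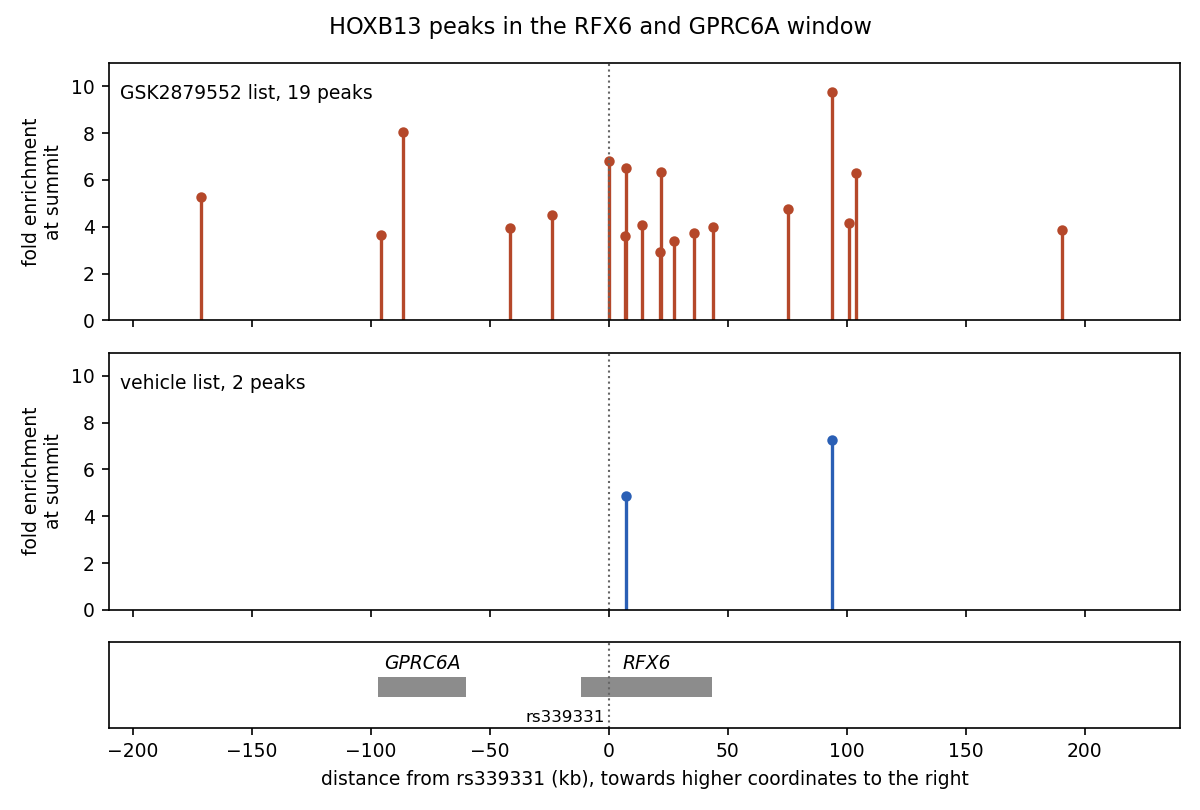
Fold enrichment at the summit (vertical axis, a ratio) of the 19 GSK2879552 peaks (upper panel) and the 2 vehicle peaks (middle panel) against the distance of the summit from rs339331 in kb, with the intervals of GPRC6A and RFX6 as grey bars. One GSK2879552 peak with a fold enrichment of 6.83 stands at the variant, and 8 summits lie inside the RFX6 interval.

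The peak at the variant was the first of a row of 8 GSK2879552 summits inside the RFX6 interval. This interval takes up 12.2% of the window and held 42.1% of its GSK2879552 peaks. That is 14.6 peaks per 100 kb, against 4.22 per 100 kb over the whole window. Going up the chromosome from the variant, the second summit lay 6764 bp above it, in a peak at 117216700 to 117216943 that had a pileup of 21 and was enriched 3.60-fold. The third lay 410 bp further, 7174 bp above the variant, in a peak at 117217099 to 117217333 that had a pileup of 38 (26.9 to 52.2) and was enriched 6.50-fold. The pileups of 36 and 38 at the variant's peak and at this one differed by less than their counting intervals. The fourth summit, 13979 bp above the variant in a peak at 117223898 to 117224151, had a pileup of 24 and an enrichment of 4.08-fold.

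The upper part of RFX6 held weaker peaks around 1 stronger one. A peak at 117231537 to 117231714, 21590 bp above the variant, had the lowest fold enrichment of the window, 2.93, with a pileup of 12. Its neighbour at 117231891 to 117232178, with a summit 344 bp further, reached 6.36 and a pileup of 27. Counting intervals of this pair overlapped, 17.8 to 39.3 tags against 6.2 to 21.0. The last members inside RFX6 were enriched 3.37-fold, at 117237353 to 117237491, and 3.72-fold, at 117245611 to 117245934. The first of them was 139 bp wide, the smallest width in the GSK2879552 list. Inside RFX6, neighbouring summits were a median of 6.8 kb apart and 8.24 kb at most. The median over the whole window, RFX6 included, was 8.1 kb, and over chromosome 6 it was 23.5 kb.

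RFX6 had no peak at its start in either list. The nearest GSK2879552 summits lay 12.3 kb below and 11.6 kb above the lower end of the interval, where transcription of RFX6 begins, and the upper of them is the peak at the variant. At the other end, a peak at 117253636 to 117253938 had its summit 398 bp past the end of the interval and was enriched 4.00-fold.

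GPRC6A carried 2 GSK2879552 peaks and no vehicle peak. The stronger was 640 bp wide, at 117123093 to 117123732, 86.7 kb below rs339331. Its fold enrichment was 8.03, with a pileup of 50 (37.1 to 65.9) over a local background of 5.35, and it had a −log10 q-value of 27.0. Of all GSK2879552 peaks, 96.7% had a lower fold enrichment and 99.4% were narrower. The other, at 117114074 to 117114314 and 95.9 kb below the variant, had a pileup of 14 and was enriched 3.65-fold. This was above that of 20.9% of all GSK2879552 peaks.

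Neither GPRC6A peak was at the start of the gene, which is read towards lower coordinates. The nearest GSK2879552 summits were 26.6 kb below and 18.5 kb above the upper end of its interval, positions that the approximate interval fixes only roughly. The promoter of GPRC6A is shown because it is the sequence at this start; RefSeq gives it for 2 starts, and the upper one is printed, at chr6:116829034-116829333 on the minus strand of GRCh38.p14, a build other than that of the peaks. It is written 5′ to 3′, with letters of a forkhead motif in capitals.
GPRC6A promoter: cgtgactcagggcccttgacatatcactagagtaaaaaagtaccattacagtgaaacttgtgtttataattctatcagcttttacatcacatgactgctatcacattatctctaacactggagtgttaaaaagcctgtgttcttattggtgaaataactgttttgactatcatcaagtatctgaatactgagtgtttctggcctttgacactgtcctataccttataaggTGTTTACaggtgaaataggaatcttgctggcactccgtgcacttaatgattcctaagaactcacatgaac
On both strands, these 300 bases held none of the HOXB13 letters CAATAAA and TCGTAAA, which 4.00% and 0.541% of the 35116 RefSeq promoters held. They held TGTTTAC, a forkhead core, once, as did 3.42% of promoters at least once. These are matches of letters only.

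Between the genes and towards the ends of the window the peaks were sparser. The 48.4 kb between GPRC6A and RFX6 held 2 GSK2879552 peaks, at 117168425 to 117168587 and 117185767 to 117186191, with fold enrichments of 3.94 and 4.51. Below GPRC6A a single peak at 117038437 to 117038733, 171.48 kb from the variant, had a fold enrichment of 5.25. It was followed by 75.5 kb without a summit. The 196.7 kb above RFX6 held 6 peaks, or 3.1 per 100 kb, among them the strongest of the window.

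That strongest site lay outside both genes. Its GSK2879552 peak at 117303590 to 117303931, 93.68 kb above rs339331 and 50402 bp past the end of RFX6, had a fold enrichment of 9.75, a pileup of 65 (50.2 to 82.8) over 5.77 and a −log10 q-value of 40.2. Its interval of 50.2 to 82.8 tags lay narrowly above that of the variant's peak, 25.2 to 49.8 tags. This peak was picked as the strongest of the window, and its interval does not allow for that choice or for PCR duplicates. Whether the pileups of the strongest peak and the variant's peak differed beyond counting error was therefore not tested. Higher values than the fold enrichment of the strongest peak were found at few peaks, since 98.7% of all GSK2879552 peaks had a lower one. Nearby, a peak at 117313727 to 117313980, 103.8 kb above the variant, had a pileup of 37 and was enriched 6.29-fold. The remaining peaks above RFX6 were at 117285238 to 117285402 with 4.75, at 117310955 to 117311274 with 4.14 and at 117400447 to 117400585 with 3.88.

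**Figure D2:**
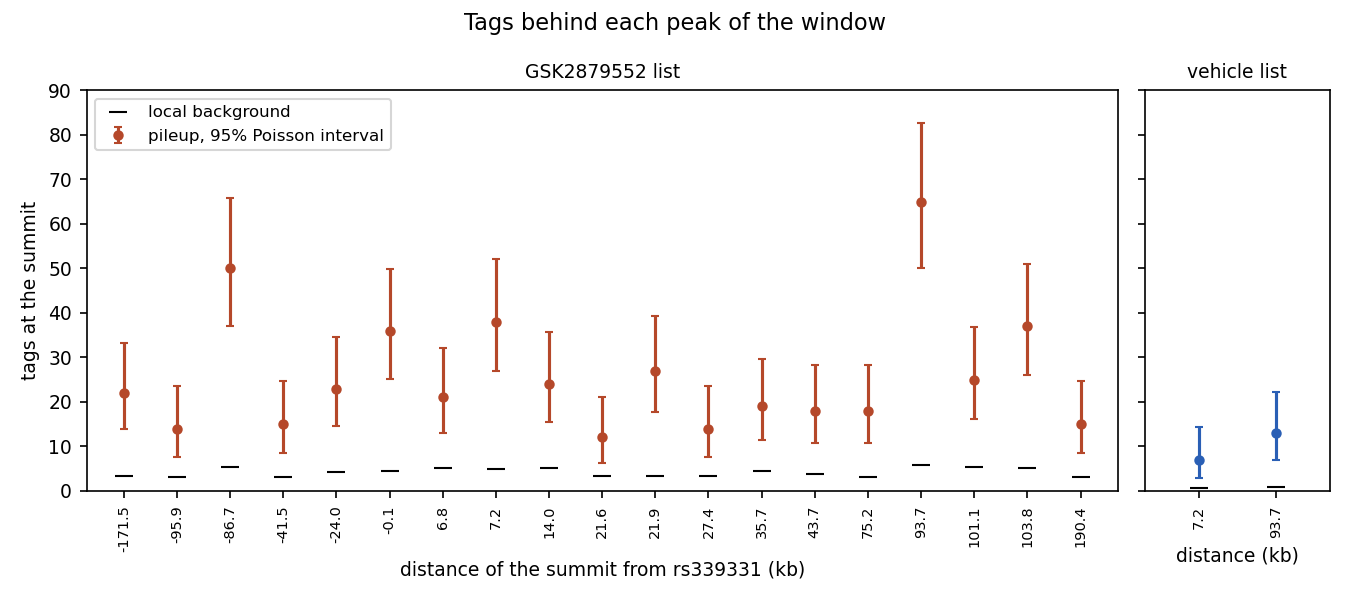
Pileup at the summit in tags, with its exact 95% Poisson interval, and local background (dash) for the 19 GSK2879552 peaks (left) and the 2 vehicle peaks (right), in order along the chromosome and named by their distance from rs339331 in kb. The peaks at −86.7 and 93.7 kb had the highest pileups, 50 and 65, and the peak at the variant had 36.

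The vehicle list held 2 peaks in the window, and both fell on GSK2879552 peaks. The first, at 117217190 to 117217289, lay inside RFX6 on the third GSK2879552 peak of the gene, with summits 7 bp apart. Its fold enrichment was 4.88, its pileup was 7 (2.8 to 14.4) over 0.64, and its −log10 q-value was 2.47. Only 12.2% of all vehicle peaks had a lower −log10 p-value. The second vehicle peak, at 117303681 to 117303808, lay on the strongest GSK2879552 peak, with summits 18 bp apart. It was enriched 7.25-fold, and its pileup was 13 (6.9 to 22.2) over 0.93. Across the genome, 91.2% of vehicle peaks overlapped a GSK2879552 peak, so 2 of 2 is near the background.

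Of the 19 GSK2879552 peaks, 2 had a vehicle peak, or 10.5% (exact 95% binomial interval 1.30 to 33.1), beside 4.59% over all chromosomes, a share inside that interval. The lists differed in background. If taken from the immunoprecipitated library itself, it depends on depth and on the length of the extended tags. That length is not known for either list. The smallest listed width was 139 bp with GSK2879552 and 100 bp with vehicle. The genome-wide background, solved from the deposited values, was 2.79 tags with GSK2879552 and 0.443 with vehicle, a ratio of 6.31. How much of this ratio is depth was not tested. Whether a vehicle peak was listed went with the pileup of the GSK2879552 peak. Genome-wide the share was 0.579% below a pileup of 20, 2.94% from 20 to below 30, 12.1% from 30 to below 40, 36.0% from 40 to below 60, 72.7% from 60 to below 100 and 73.3% at 100 or more. In the window, 8 peaks were below 20 and 6 were from 20 to below 30, and none of these had a vehicle peak. From 30 to below 40 it was 1 of 3, the peak at the variant being among the other 2. The peak of pileup 50 in GPRC6A had no vehicle peak, and the peak of pileup 65 had one.

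Divided by the background ratio of 6.31, the GSK2879552 pileups at the 2 shared sites came to 6.03 and 10.31 tags. The vehicle pileups of 7 and 13 had wide intervals that held these values. Both sites could be compared only because a vehicle peak was listed there, so this does not test the division. At the variant the same division gave 5.71 tags, and the counting interval of the pileup came to 4.00 to 7.90. Local background there was 1.582 times the genome-wide value in the GSK2879552 library. Among the 1121 vehicle peaks with a local background of 1.5 to below 2.0 times their genome-wide value, the lowest pileup was 6, which lies inside that interval. The missing vehicle peak at rs339331 thus does not show whether HOXB13 binding there differed between the treatments. The vehicle background at unlisted sites is not given by the list, so the GSK2879552 value stands in for it. At the shared site inside RFX6 these relative backgrounds differed, 1.791 with GSK2879552 and 1.445 with vehicle. At the other shared site they were 2.065 and 2.099. For the strong GPRC6A peak, where no vehicle peak was listed, the division gave 7.93 tags, with an interval of 5.88 to 10.45 that also held 6. Among the 159 vehicle peaks at the genome-wide background, the lowest pileup was 5, below that interval. The division takes tags at a summit to scale as the background does, which was not tested. With a smaller ratio all divided values would be higher, and their intervals might not hold 6.

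**Figure D3:**
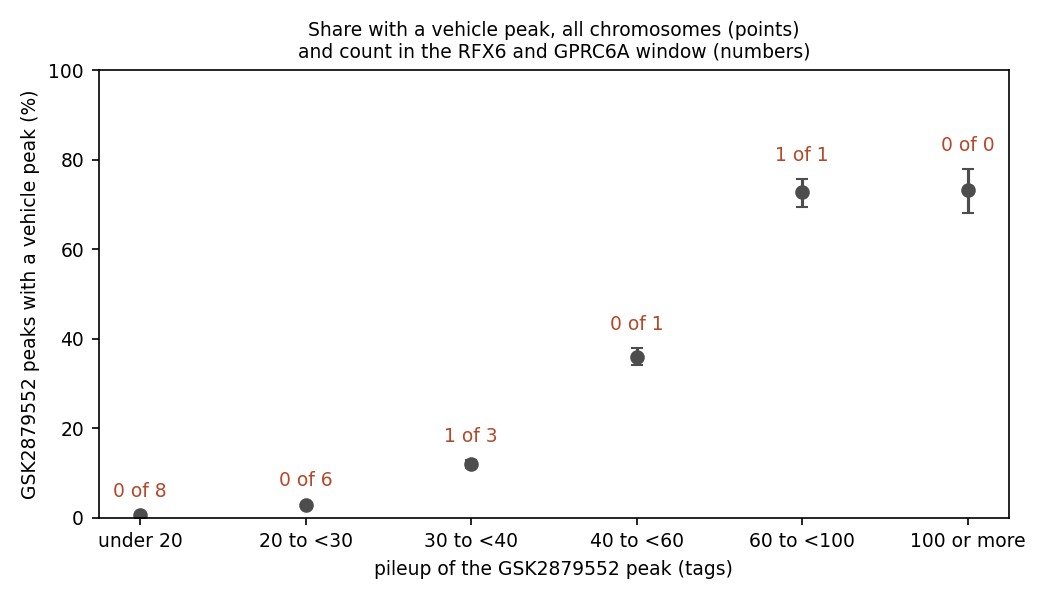
Share of GSK2879552 peaks with a vehicle peak in percent (points, exact 95% binomial intervals) by pileup of the GSK2879552 peak in tags, all chromosomes, with the count in the RFX6 and GPRC6A window as numbers above. The share was 12.1% in the class that holds the peak at rs339331, where 1 of 3 window peaks had a vehicle peak.

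Set beside the rest of chromosome 6, the window was rich in GSK2879552 peaks without being among the richest. When the chromosome was tiled in windows of 450 kb from its start, 362 windows held a GSK2879552 peak, and the 19 peaks ranked 24th. The other 361 windows had a median of 11 peaks (quartiles 7 and 14, highest 27), 23 had more and 5 had as many. Its 2 vehicle peaks were exceeded in 6 other windows and matched in 26, while 232 had none. The 2 windows with most vehicle peaks, 5 each, lie at the ends of an interval without GSK2879552 summits, about 58.8 to 61.9 Mb. Their GSK2879552 peaks had median local backgrounds of 33.466 and 3.293 times the genome-wide value. With 5373 bp under GSK2879552 peaks the window of the pair ranked 14th, the median of the others being 2486 bp. Windows of 1 list are not replicates, so these ranks are descriptions.

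Fold enrichment in the window was ordinary at the centre of its range. The median of the 19 peaks was 4.14, and 249 of the 361 other windows had a higher median. Of the 19, 7 reached a fold enrichment of 5, or 36.8%, beside 26.6% over all chromosomes, and 10 other windows held more such peaks. A share of so few peaks is uncertain, and whether it differs from that background was not tested. The highest value, 9.75, was exceeded in 42 other windows. The members had a median width of 254 bp against 199 bp for all GSK2879552 peaks, and 40 of the 361 other windows had a higher median width. Their local background was also higher, at a median of 1.547 times the genome-wide value, and 12 of the 361 other windows exceeded it. DNA copy number was not examined, and the part of this background in the number of peaks was not tested.

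**Figure D4:**
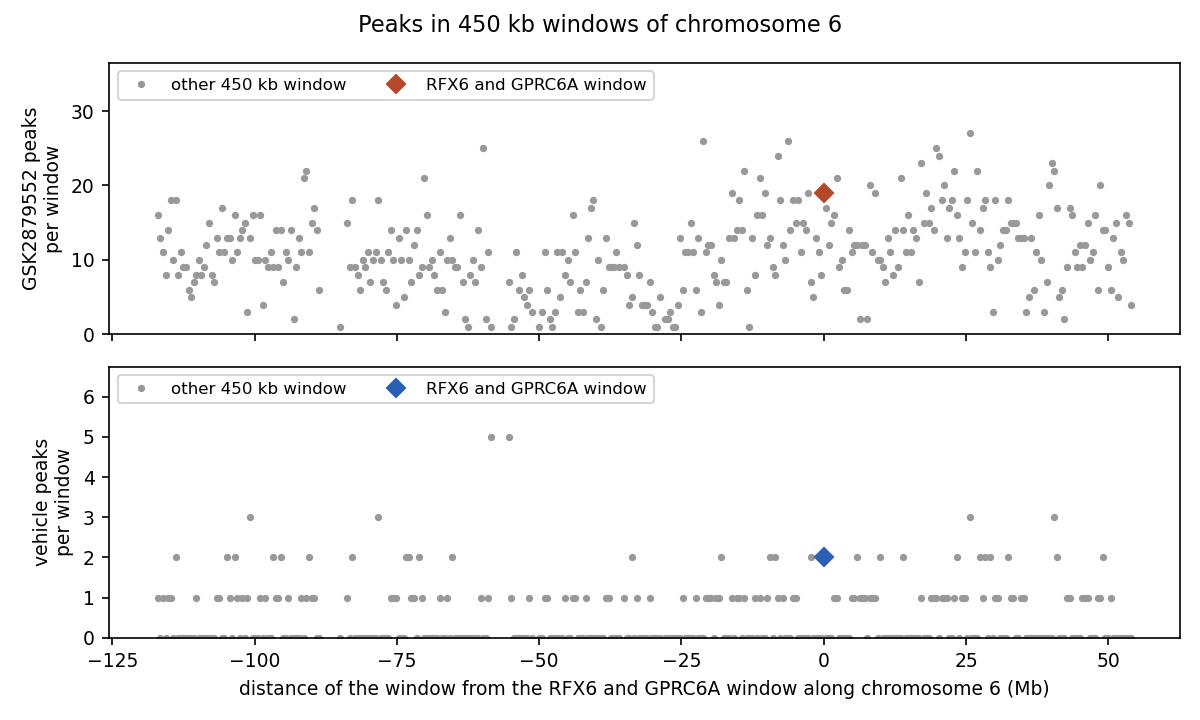
Number of GSK2879552 peaks (upper panel) and vehicle peaks (lower panel) in each 450 kb window of chromosome 6 with a GSK2879552 peak, against the distance of the window from the RFX6 and GPRC6A window in Mb. The window of the pair, drawn as a diamond, held 19 and 2 peaks, and the highest counts of the others were 27 and 5.

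Both neighbouring windows held fewer GSK2879552 peaks than the window of the pair. The one above came close in number. In median fold enrichment both came close, with 4.17 below and 4.22 above against 4.14. The window below, from 116.55 to 117.0 Mb, held 8 GSK2879552 peaks with a highest fold enrichment of 6.0, and the window above, from 117.45 to 117.9 Mb, held 17 with a highest of 4.82. Neither had a vehicle peak. The windows with most GSK2879552 peaks were at 142.65 to 143.1 Mb with 27, and at 95.85 to 96.3 Mb and 110.7 to 111.15 Mb with 26 each. The first of these had 3 vehicle peaks and the others had none.

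The density inside RFX6 stood out more than that of the window. In tiles of the length of the RFX6 interval, 54951 bp, laid from its lower end along chromosome 6, the RFX6 tile held 8 GSK2879552 summits. The median of the 2001 other tiles with a peak was 2, the highest was 9, and 4 of them held as many or more. The 8 peaks had a median fold enrichment of 3.9, below the 4.14 of the whole window. With a −log10 q of at least 5, 4 of the summits inside RFX6 remained, and with a fold enrichment of at least 5, 3 did. Tiles were not counted again at these limits. This tiling was chosen after the positions had been seen, and it starts at the gene, so it describes the interval and tests nothing.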

How the data were processed

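HOXB13 peaks were read from 2 deposited lists, each made from both lanes of a treatment, with treatments taken from titles and descriptions. Per the submitters' processing notes, the tools were MACS2 2.1.2, SAMtools 0.1.18 and BWA 0.7.2 and the build hg19 or GRCh37; roles and order are not stated. Use of an input control: not given in the sources used here. In 100% of rows the deposited score equalled the −log10 q-value times 10, rounded down. The deposited fold enrichment, a ratio per peak, and the deposited −log10 p-value and q-value are the authors' values at the summit. They were used to describe and rank peaks within a list.

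Peaks on chromosomes 1 to 22, X and Y were kept, so 676 of 68725 GSK2879552 peaks and 215 of 3722 vehicle peaks were left out. Positions are given from 1. Each peak's pileup k and local background λ follow from its Poisson p-value and its fold of (k + 1)/(λ + 1) and were found within 0.001 on the −log10 scale for 100% of both lists; the genome-wide background was the commonest λ. The solver was tested on simulated data. Peaks were called shared when they overlapped by at least 1 bp. Values were computed with Python 3.11.15 and scipy 1.17.1. Peaks described in full followed a rule: the vehicle peaks, the 5 GSK2879552 peaks of highest fold enrichment, those nearest rs339331 and those inside the genes. The other windows named were the 3 with most GSK2879552 peaks and both neighbours. The window, rule and motifs were chosen with earlier results of these data known. PCR duplicates cannot be told apart from separate molecules in these lists.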

Additional observations from a re-analysis of the deposited data

How the results depend on the processing

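No test was run between treatments, and no lane could be left out, because both lanes of a treatment share 1 peak list. No paired analysis was possible because the lane numbers mark lanes of 1 library and each treatment has 1 list. With peaks limited to a −log10 q of at least 5, the window held 11 GSK2879552 peaks and 1 vehicle peak, 1 shared site and 4 GSK2879552 summits inside RFX6, the nearest vehicle summit lay 93694 bp from rs339331, and the rank by number of GSK2879552 peaks was 29. With GSK2879552 peaks limited to a fold enrichment of at least 5, there were 7 in the window and 3 inside RFX6, and the rank was 11. The rank by covered bases was 14. With each peak required to cover at least 50% of the other, 0 sites were shared, where the GSK2879552 peaks were 235 and 342 bp wide and the vehicle peaks 100 and 128 bp. With summits within 100 bp, 2 sites were shared. Windows laid across the borders of the first tiling gave a rank of 21, and windows of the long arm alone, beyond the peak-free interval that ends at 61.9 Mb, a rank of 20. The distance of 70 bp between rs339331 and the nearest GSK2879552 summit was the same with both limits on peaks, and membership by any overlap with the window left the counts at 19 and 2.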
